A study of Mus musculus with 9 samples.

Results

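The unfolded protein response and the integrated stress response were followed in mouse liver through 10 genes, Atf4, Ddit3, Trib3, Chac1, Asns, Xbp1, Hspa5, Herpud1, Dnajb9 and Creb3l3. They were taken by gene symbol from a table of 54532 genes. All 10 passed the filter on low values, as did 13737 genes in all. A second entry named Ddit3, 105 bases long, was at 0 in all 9 libraries and was not tested.

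The livers came from male wild-type C57BL/6J mice in 3 groups of 3 libraries. The 326E group was fed CDAA-HFD, a high-fat diet without choline whose protein is replaced by free L-amino acids and which gives mice steatohepatitis, and was dosed for 6 weeks with 326E at 30 mg/kg. The vehicle group received the same diet and vehicle, and the chow group received normal chow and vehicle. The series title names 326E as an enedioic acid analogue directed at ATP citrate lyase and PPARα, and the sample titles begin with MCD although the protocol names CDAA-HFD. Whether each library comes from its own animal is not stated in the labels, so p-values measure the spread between these samples, which may be technical.

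Protein that fails to fold in the endoplasmic reticulum (ER) is sensed by 3 membrane proteins. IRE1 (Ern1) splices Xbp1 mRNA, PERK (Eif2ak3) phosphorylates the translation factor eIF2, and ATF6 is cut in the Golgi to release a transcription factor. XBP1 and ATF6 raise chaperones such as BiP (Hspa5) and the machinery that returns misfolded protein to the cytosol for degradation, which includes HERP (Herpud1). Phosphorylated eIF2, which other kinases can also produce when amino acids or haem are short, favours translation of ATF4, and ATF4 raises CHOP (Ddit3), Trib3, Chac1 and Asns. CREBH (Creb3l3) is a liver-enriched relative of ATF6 in the ER membrane that acts on genes of lipid transport and the acute phase. Hepatocytes secrete large amounts of protein, and several of these genes are abundant in healthy liver. Much of the control of ATF4, XBP1, ATF6 and CREBH lies in translation, splicing and cleavage, which gene-level mRNA values do not show.

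Letter matches to the promoter elements known for these arms are shown for the members that carry them. Sequences are from RefSeq on GRCm38.p6, 5′ to 3′ on the gene's own strand, and capitals mark the element. The windows lie at chr2:152344028-152344057 (minus strand, Trib3), chr2:119351029-119351076 (plus, Chac1), chr6:7693214-7693243 (minus, Asns), chr8:94386297-94386407 (plus, Herpud1) and chr2:34772020-34772048 (plus, Hspa5).
Trib3: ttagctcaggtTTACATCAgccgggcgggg
Chac1: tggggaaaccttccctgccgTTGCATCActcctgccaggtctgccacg
Asns: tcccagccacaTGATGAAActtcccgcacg
Herpud1: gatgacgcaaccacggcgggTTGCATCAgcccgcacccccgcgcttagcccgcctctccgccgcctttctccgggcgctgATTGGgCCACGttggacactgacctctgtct
Hspa5: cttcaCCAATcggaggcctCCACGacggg
The element bound by ATF4 with C/EBP partners, TGATGNAA on either strand, was found in 4 of 10 member promoters (Trib3, Chac1, Asns and Herpud1), against 3.97% of 32851 promoters of the same 300 bases. The ER stress response element (ERSE), CCAAT and CCACG with 9 bases between them, was found in 1 of 10, Hspa5, against 0.119% of promoters. ERSE-II, ATTGG and CCACG with 1 base between them, was also found in 1 of 10, Herpud1, against 0.0365%. ERSE-II was added to the search after the Herpud1 promoter was seen. Its match was thus known in advance, and the background share does not measure enrichment. The UPRE, TGACGTGG, was found in 0 of 10, against 0.676%. The shared 3′ part CCACG alone, which overlaps the ERSE and ERSE-II matches, was found in 6 of 10, against 32.8%. A match is a description of the letters in this window, and binding was not tested. The match of Trib3 lies at bases 15 to 22 on the transcribed side of the RefSeq start site. The RefSeq start of Hspa5 lies 120 bases inside the gene as the deposited table places it, and that of Dnajb9 lies 258 bases inside.

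**Figure D1:**
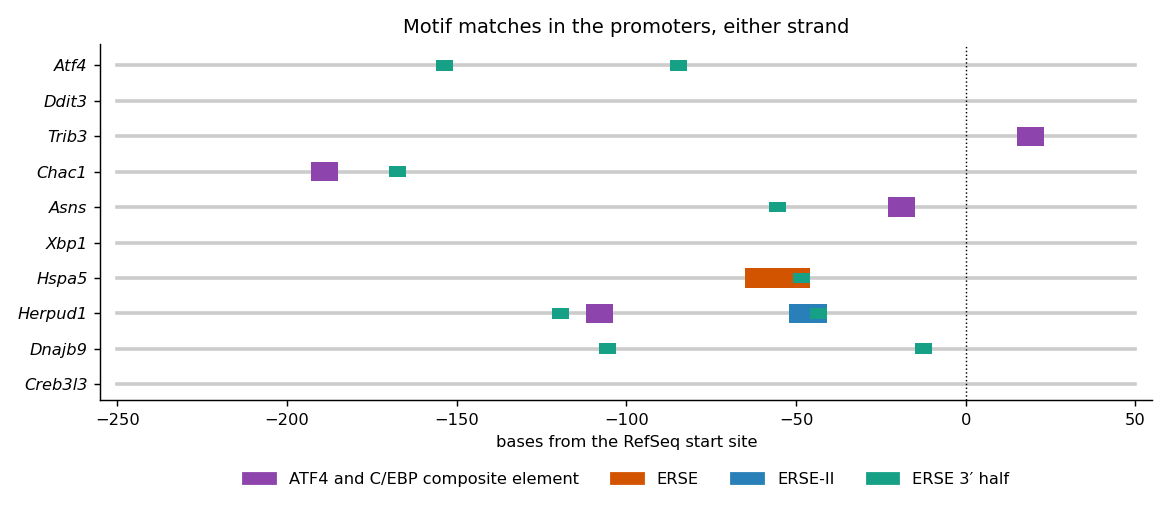
Positions of the searched elements in the 10 member promoters, in bases from the RefSeq start site (x axis), with 1 line per gene. The ATF4 and C/EBP element lies in Trib3, Chac1, Asns and Herpud1, the ERSE in Hspa5 and ERSE-II in Herpud1.

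Splicing of Xbp1 by IRE1 removes 26 bases of coding exon 4, at chr11:5524279-5524304 on the plus strand of GRCm38, shown here in capitals between the flanking bases of the GENCODE vM21 transcript Xbp1-201.
Xbp1: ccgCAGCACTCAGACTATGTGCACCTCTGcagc
These bases are 0.800% of the 3248 bases over which Xbp1 reads were summed. The FPKM of Xbp1 therefore does not separate the spliced from the unspliced form.

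Values are FPKM, fragments per kilobase of gene and per unit of library size, as the authors scaled them between libraries, and a level can be compared between genes because it is per length. Assigned reads per library, read back from FPKM and gene length, ranged from 13275888 to 17058316. Log2 fold changes are differences in log2(FPKM+1), given ± SE, and understate the change of low genes. A gene was called at a Benjamini-Hochberg adjusted p under 0.05 in limma, fitted over all 13737 tested genes. Hepatocyte markers (8 genes summed) held 26363 to 37586 FPKM in 326E libraries, 28633 to 43541 in vehicle libraries and 42058 to 49221 in chow libraries. Macrophage markers (9 genes) held 585 to 1014 FPKM in 326E, 1042 to 1739 in vehicle and 202 to 225 in chow libraries, and their part in the results below was not tested. In bulk liver, fewer cells of a type and less RNA per cell cannot be told apart.

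Some libraries stood apart. Pancreas acinar transcripts (Ctrb1, Prss2, Pnlip, Cela2a and Cpa1 summed) reached 981 FPKM in 326E replicate 1 and 7900 FPKM in chow replicate 3, against 0.355 to 9.46 FPKM in the other 7 libraries. Acinar cells are rich in ER chaperone mRNA, so results are also given without those libraries. Among vehicle libraries, replicates 1 and 3 differed from replicate 2 in immediate early genes, whose median log2 level above the chow mean was 3.53, 1.45 and 3.96 in vehicle replicates 1, 2 and 3, against 0.86, 0.43 and 0.57 in 326E replicates 1, 2 and 3.

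With 326E, Herpud1 fell and was the one called member of the 10. It is an ER membrane protein that helps assemble the ubiquitin ligase complex of ER-associated degradation. For all genes, 6.5% were called lower and 4.96% higher in this comparison, so 1 call in 10 is near the background. The median log2 fold change of the 10 members was -0.40, against -0.02 over all tested genes, and 8 of the 10 values were negative. The share of negative values over all genes was not counted. The members' median was -0.63 without vehicle replicate 2 and -0.11 with vehicle replicate 2 as the only vehicle library, so its size depended on the vehicle libraries used. No overlap between 326E and vehicle libraries was seen for 4 members, Herpud1, Hspa5, Asns and Creb3l3, against a background of 33% of genes.

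Between diets, Ddit3 rose and Trib3 fell in vehicle livers against chow livers. Ddit3 encodes CHOP, a transcription factor of prolonged ER stress, and Trib3 encodes a pseudokinase that ATF4 and CHOP induce. The background was 20.8% of genes called higher and 20.8% called lower, against 1 member in each direction. Groups did not overlap for 2 of 10 members, Ddit3 and Herpud1, against 51.9% of genes. The median of the members was -0.19, against -0.04 over all genes, and turned to 0.21 and 0.27 with scaling to total assigned reads and by quantiles and to 0.04 without chow replicate 3. Scaling to total assigned reads moved the median of all genes to 0.25, and 84.1% of calls were then higher, against 50% with the deposited scaling.

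In 326E livers against chow livers, Herpud1 and Xbp1 fell. Backgrounds were 12.5% of genes called lower and 14.4% called higher, against 2 and 0 members. In limma, 1 member was higher and 3 were lower at an unadjusted p under 0.05, and voom on the recovered reads called 0 members higher and 3 lower. Groups did not overlap for Atf4, Ddit3, Xbp1 and Herpud1, 4 of 10 members, against 45.1% of genes. The median of the members was -0.53, against -0.02 over all genes. Scaling to total assigned reads moved the median of all genes to 0.24 and the share of calls that were higher to 86.9%, against 53.5%, and the members' median was then -0.21. The comparisons share libraries in pairs and are not independent of each other.

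**Figure D2:**
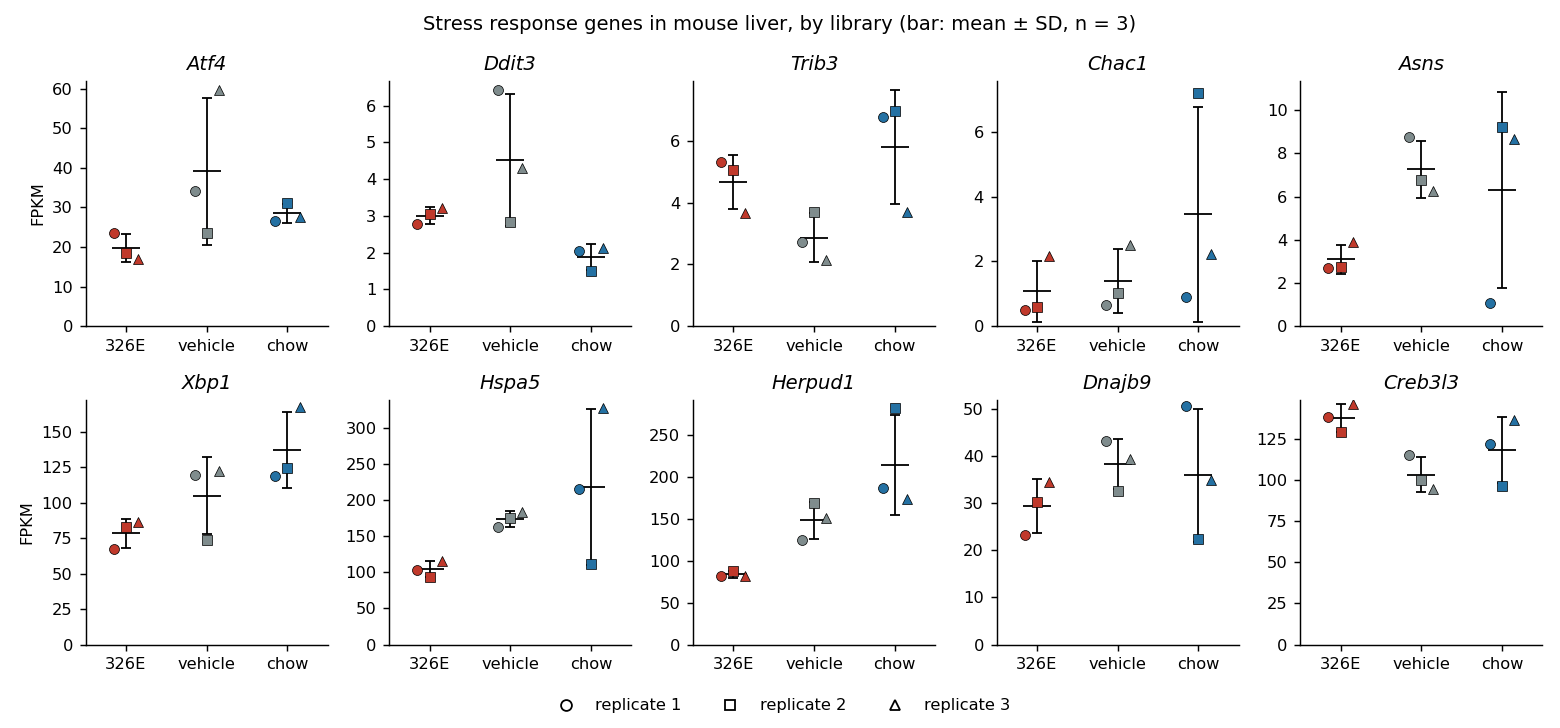
FPKM of the 10 genes in each library (y axis, from 0) for the 326E, vehicle and chow groups, with the group mean and SD (n = 3). Herpud1 is lowest in all 3 libraries of the 326E group, and the chow libraries of Hspa5, Chac1 and Asns spread most widely.

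Herpud1 (ENSMUSG00000031770, mm10 chromosome 8, 94386438 to 94395377, plus strand) had 81.3, 88.0 and 81.6 FPKM in 326E replicates 1, 2 and 3, 125, 168 and 151 FPKM in the vehicle replicates, and 186, 282 and 174 FPKM in the chow replicates. All 3 groups were apart, with 326E lowest and chow highest, and the 326E libraries were closest to each other. The mean was 83.7 ± 3.77 FPKM in 326E, 148 ± 21.9 in vehicle and 214 ± 59.3 in chow (SD, n = 3 each). In 326E the mean was 0.565 of that in vehicle (log2 -0.81 ± 0.19, adjusted p = 0.0274) and 0.391 of that in chow (-1.31 ± 0.19, adjusted p = 0.00142). Between vehicle and chow the log2 difference was -0.50 ± 0.19 with an adjusted p of 0.0590, so that step was not called. Over 22 alternative settings it ran from -0.64 to -0.000859. It was called with the replicate block (adjusted p = 0.0363), with voom (0.0462) and without chow replicate 3 (0.0386), and was nearest to 0 with quantile scaling (adjusted p = 0.998).

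The fall of Herpud1 against chow was called in all 22 alternative settings, with log2 values of -1.44 to -0.89. Against vehicle it stayed between -1.002 and -0.71, but 8 of 22 settings gave an adjusted p over 0.05, up to 0.106. Leaving out any 326E library ended that call (adjusted p = 0.0749, 0.0731 and 0.0824 without replicates 1, 2 and 3), as did leaving out vehicle replicate 2 (0.0713) or 3 (0.0757). The antisense gene Gm15890 overlaps Herpud1 and was at most 0.601 FPKM. Its reads cannot be told from those of Herpud1 where the strand setting is unknown.

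Hspa5 encodes BiP, the main Hsp70 chaperone of the ER lumen and a partner that holds the 3 sensors inactive. It had 104, 94.2 and 116 FPKM in 326E replicates 1, 2 and 3, 163, 176 and 184 FPKM in vehicle replicates, and 215, 112 and 328 FPKM in chow replicates. The 326E and vehicle libraries did not overlap and were tight within each group, while the chow libraries ran from the level of 326E to the highest of all. The log2 difference of 326E from vehicle was -0.73 ± 0.32 (ratio of means 0.601), which was not called (adjusted p = 0.171). Against chow, 326E differed by -0.93 ± 0.32 (adjusted p = 0.0595) and vehicle by -0.20 ± 0.32 (adjusted p = 0.656).

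Chow replicate 3, the highest for Hspa5, was also the library with 7900 FPKM of pancreas transcripts. Without it and 326E replicate 1, the difference of 326E from vehicle was -0.73 (adjusted p = 0.158) and that from chow was -0.57 (0.244). The difference of vehicle from chow was then 0.16, of the opposite sign. That sign also turned when values were scaled to total assigned reads (0.20) or by quantiles (0.34). When the fit held the 326E and vehicle libraries alone, or left out chow replicate 2, Hspa5 was called lower in 326E than in vehicle. Without chow replicate 2 it was also called lower than in chow, in 326E (-1.34, adjusted p = 0.00244) and in vehicle (-0.61, adjusted p = 0.0335). The difference of 326E from chow was called in 4 of 22 settings, the others being array weights (adjusted p = 0.00654), voom (0.0376) and the replicate block (0.0495).

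Xbp1 encodes the transcription factor that IRE1 activates, and its mRNA is itself raised by ATF6. It had 66.9, 82.4 and 86.2 FPKM in 326E replicates, 119, 73.8 and 122 FPKM in vehicle replicates, and 119, 124 and 167 FPKM in chow replicates. The 326E libraries lay below every chow library, and vehicle replicate 2 lay among the 326E values. The mean of 78.5 ± 10.2 FPKM in 326E was 0.573 of the mean of 137 ± 26.6 in chow (SD, n = 3 each; log2 -0.79 ± 0.22, adjusted p = 0.0262). The difference from vehicle was -0.39 ± 0.22 (adjusted p = 0.279), and vehicle differed from chow by -0.40 ± 0.22 (adjusted p = 0.171).

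The call of Xbp1 against chow was lost in 7 of 22 settings. Among these were leaving out chow replicate 3 (adjusted p = 0.0871), 326E replicate 1 (0.0917) or 326E replicate 2 (0.0620), and leaving out chow replicate 3 and 326E replicate 1 together (log2 -0.52, adjusted p = 0.206). The log2 value stayed between -0.88 and -0.42. With vehicle replicate 2 as the only vehicle library, 326E differed from vehicle by 0.08, of the opposite sign, and vehicle was called lower than chow (-0.87, adjusted p = 0.0367). With quantile scaling the difference of vehicle from chow was -0.00223 (adjusted p = 0.994).

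Dnajb9, a co-chaperone of BiP that XBP1 induces, had 23.4, 30.3 and 34.6 FPKM in 326E replicates, 43.2, 32.7 and 39.3 FPKM in vehicle replicates, and 50.6, 22.3 and 34.9 FPKM in chow replicates. The groups overlapped in every comparison, and the chow libraries spread 2.27-fold. The log2 differences were -0.38 ± 0.27 for 326E against vehicle, 0.16 ± 0.27 for vehicle against chow and -0.22 ± 0.27 for 326E against chow. Adjusted p-values were 0.388, 0.668 and 0.575 in that order. The sign of vehicle against chow turned without chow replicate 2 (-0.14), and that of 326E against chow turned without chow replicate 1 (0.05) and with scaling to total assigned reads (0.13).

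**Figure D3:**
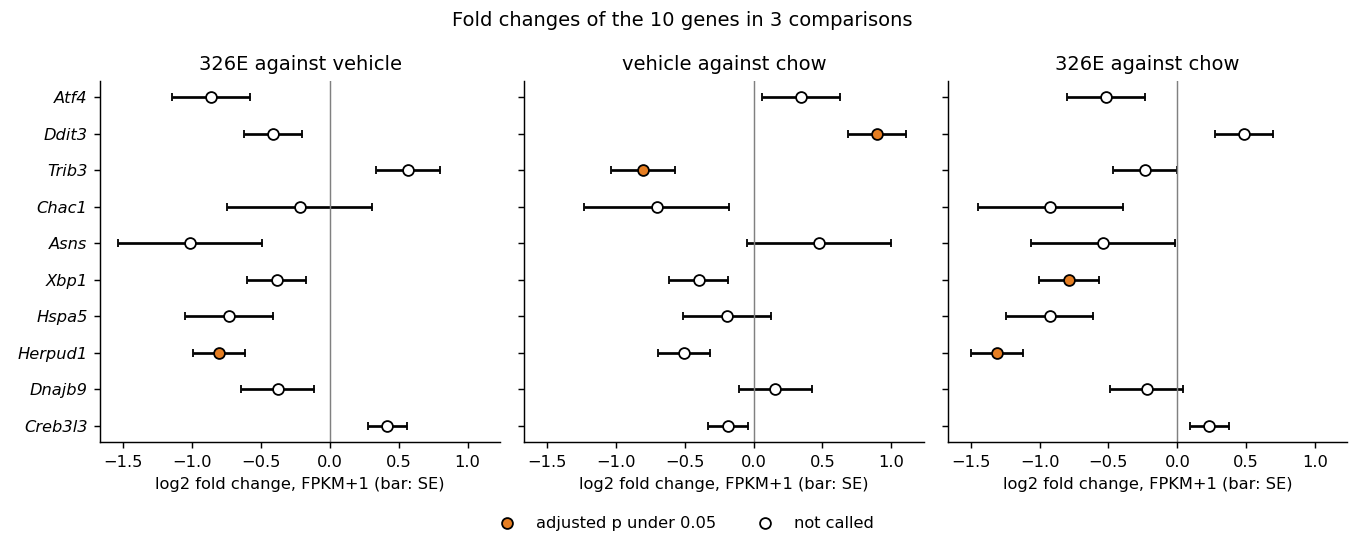
Log2 fold change of FPKM+1 (x axis, bars show SE) of each of the 10 genes for 326E against vehicle, vehicle against chow and 326E against chow. Filled points passed an adjusted p of 0.05 and are Herpud1 at -0.81, Ddit3 at 0.89 and Trib3 at -0.80, and Xbp1 at -0.79 and Herpud1 at -1.31, in the panels from left to right.

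Atf4 encodes the transcription factor common to the stress kinases of eIF2. It had 23.6, 18.5 and 17.1 FPKM in 326E replicates 1, 2 and 3, 34.1, 23.6 and 59.8 FPKM in vehicle replicates, and 26.7, 31.1 and 27.7 FPKM in chow replicates. The 326E libraries lay below every chow library, vehicle replicate 3 was far above the rest, and vehicle replicate 2 met the highest 326E library. The mean in 326E was 0.504 of that in vehicle (log2 -0.86 ± 0.28, adjusted p = 0.0814). Against chow, 326E differed by -0.52 ± 0.28 (adjusted p = 0.207) and vehicle by 0.35 ± 0.28 (adjusted p = 0.360). With vehicle replicate 2 as the only vehicle library, the difference of 326E from vehicle was -0.26, and vehicle differed from chow by -0.26, of the opposite sign. Without vehicle replicate 3 that difference was -0.00463. Atf4 was called lower in 326E than in vehicle in 3 of 22 settings, those without vehicle replicate 2, with quantile scaling and with array weights. Its difference from chow was called in 326E with only the libraries of the comparison (adjusted p = 0.0319) and with vehicle replicate 2 alone (0.0320), and in vehicle with scaling to total assigned reads (0.73, adjusted p = 0.0458).

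Ddit3 (ENSMUSG00000025408, mm10 chromosome 10, 127290774 to 127296288, plus strand) had 2.78, 3.04 and 3.21 FPKM in 326E replicates, 6.42, 2.84 and 4.30 FPKM in vehicle replicates, and 2.04, 1.49 and 2.13 FPKM in chow replicates. These levels rest on 33 to 180 reads per library. All 3 vehicle libraries and all 3 326E libraries lay above every chow library, and vehicle replicate 2 lay among the 326E values. The mean in vehicle was 2.40 times that in chow (log2 0.89 ± 0.21, adjusted p = 0.00844). In 326E the log2 difference was -0.41 ± 0.21 from vehicle (adjusted p = 0.237) and 0.48 ± 0.21 from chow (adjusted p = 0.123). The difference of 326E from chow was called in 5 of 22 settings and ran from 0.22 to 0.73. Those 5 were scaling to total assigned reads (0.73, adjusted p = 0.0221), only the libraries of the comparison (0.0233), vehicle replicate 2 alone (0.0231), and leaving out vehicle replicate 1 (0.0410) or 2 (0.0432).

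The rise of Ddit3 on the diet was called in 21 of 22 settings, and was 0.96 without 326E replicate 1 and chow replicate 3. It was not called with vehicle replicate 2 as the only vehicle library (0.42, adjusted p = 0.103), where 326E differed from vehicle by 0.06, of the opposite sign. Without vehicle replicate 2, Ddit3 was called lower in 326E than in vehicle (-0.65, adjusted p = 0.0446). Mars, on the opposite strand with up to 18.2 FPKM, and Gm4189 overlap Ddit3. Without a known strand setting, reads in the shared bases cannot be assigned with certainty.

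Trib3 (ENSMUSG00000032715, mm10 chromosome 2, 152337422 to 152344032, minus strand) had 5.30, 5.05 and 3.67 FPKM in 326E replicates, 2.73, 3.70 and 2.13 FPKM in vehicle replicates, and 6.78, 6.97 and 3.68 FPKM in chow replicates. Vehicle libraries held the lowest values, and single libraries of the 326E and chow groups reached down to the highest vehicle library. The mean in vehicle was 0.491 of that in chow (log2 -0.80 ± 0.23, adjusted p = 0.0217). In 326E the log2 difference was 0.57 ± 0.23 from vehicle (adjusted p = 0.149) and -0.24 ± 0.23 from chow (adjusted p = 0.489). Trib3 and Ddit3 were called in opposite directions on the diet.

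The fall of Trib3 on the diet was lost in 7 of 22 settings. Without vehicle replicate 1 or 3 the adjusted p was 0.0550 and 0.0733, and without chow replicate 1 or 2 it was 0.0746 and 0.0707. It was called without 326E replicate 1 and chow replicate 3 (-1.05). Scaling to total assigned reads gave -0.48 (adjusted p = 0.169), and turned the difference of 326E from chow to 0.07.

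Asns encodes asparagine synthetase, induced by ATF4 when amino acids are short. It had 2.67, 2.73 and 3.88 FPKM in 326E replicates, 8.76, 6.76 and 6.28 FPKM in vehicle replicates, and 1.08, 9.23 and 8.65 FPKM in chow replicates. The 326E libraries lay below every vehicle library, and chow replicate 1 lay below all other libraries. The log2 difference of 326E from vehicle was -1.02 ± 0.52 (ratio of means 0.426, adjusted p = 0.241). Against chow, 326E differed by -0.54 ± 0.52 (adjusted p = 0.481) and vehicle by 0.48 ± 0.52 (adjusted p = 0.498). Without chow replicate 1, vehicle differed from chow by -0.28, of the opposite sign, and Asns was called lower in 326E than in vehicle and than in chow. It was also called lower than in vehicle when the fit held only the libraries of the comparison.

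Chac1 encodes an enzyme that degrades glutathione and is induced by ATF4. It had 0.484, 0.575 and 2.16 FPKM in 326E replicates, 0.635, 1.02 and 2.52 FPKM in vehicle replicates, and 0.899, 7.21 and 2.22 FPKM in chow replicates, from 14 to 153 reads per library. Chow replicate 2 stood far above the rest, and the groups overlapped in all comparisons. The log2 differences were -0.22 ± 0.53 for 326E against vehicle (adjusted p = 0.821), -0.70 ± 0.53 for vehicle against chow (0.317) and -0.92 ± 0.53 for 326E against chow (0.228). Without vehicle replicate 3, 326E differed from vehicle by 0.10, of the opposite sign.

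Creb3l3 encodes CREBH. It had 138, 129 and 146 FPKM in 326E replicates, 115, 100 and 94.4 FPKM in vehicle replicates, and 122, 96.7 and 136 FPKM in chow replicates. The 326E libraries lay above every vehicle library, and chow lay across both. The mean in 326E was 1.34 times that in vehicle (log2 0.42 ± 0.14), which was not called (adjusted p = 0.0941), nor in any of the 22 settings (0.36 to 0.50). Against chow, 326E differed by 0.23 ± 0.14 (adjusted p = 0.262) and vehicle by -0.18 ± 0.14 (adjusted p = 0.334). The sign of vehicle against chow turned with scaling to total assigned reads and with quantile scaling (0.21 in each), and under those scalings Creb3l3 was called higher in 326E than in chow (0.60 and 0.57).

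By level, the genes split into an abundant set and a low set. Mean FPKM in 326E livers was 138 for Creb3l3, 105 for Hspa5, 83.7 for Herpud1 and 78.5 for Xbp1. Dnajb9 (29.4) and Atf4 (19.7) lay between, and Trib3 (4.67), Asns (3.09), Ddit3 (3.01) and Chac1 (1.07) were low. Neighbours in this order did not all differ beyond their spread. Hspa5 at 105 ± 10.8 and Herpud1 at 83.7 ± 3.77 FPKM were apart, whereas Herpud1 and Xbp1 (78.5 ± 10.2) were not, nor were Asns (3.09 ± 0.683) and Ddit3 (3.01 ± 0.221). In chow livers Hspa5 (218 ± 108) and Herpud1 (214 ± 59.3) led without differing beyond their spread, above Xbp1 (137) and Creb3l3 (118), and in vehicle livers Hspa5 (174) and Herpud1 (148) led.

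Chac1, Hspa5 and Creb3l3 were compared with all other protein-coding genes of at least 5 FPKM for likeness of profile, by root mean square difference of z-scores over the 9 libraries. Hspa5 was nearest to Arl1 (0.28), Hyou1 (0.29) and Sec23b (0.34). Hyou1, a large ER chaperone, had 8.89, 7.39 and 10.9 FPKM in 326E replicates, 12.1, 12.9 and 13.3 in vehicle replicates, and 20.7, 9.85 and 37.0 in chow replicates, so it shared with Hspa5 the low chow replicate 2 and the high chow replicate 3. Creb3l3 was nearest to Ppcs (0.32), Acsl1 (0.35) and Cmas (0.36). Chac1 was nearest to Pdcd6 (0.44), Pcx (0.46) and Dap (0.48), at a larger distance than for the other two.

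Beyond the 10 genes, 95 genes in 6 lists of the same pathways were examined, of which 89 could be tested. With 326E against vehicle, 3 were called lower and 0 higher. In limma, 2 of these 89 were higher at an unadjusted p under 0.05, and voom called 0 higher and 5 lower. Those lower at an unadjusted p under 0.05 were 4 sensors, 6 ATF4 and CHOP targets and 3 chaperones. The degradation, translocation and CREB3 family lists had 1 lower gene each. The 3 calls by adjusted p in limma were 3.37% of the 89, against 11.5% of all tested genes. The median over the 89 was -0.13. Against chow, vehicle livers had 11 higher and 22 lower, with a median of -0.11, and 326E livers had 5 higher and 27 lower, with a median of -0.22. The share called was 37.1% in vehicle, against 41.6% of all genes, and 36.0% in 326E, against 26.8% of all genes. Scaling to total assigned reads turned these counts to 33 higher and 5 lower in vehicle and 19 higher and 7 lower in 326E. Without 326E replicate 2 the count against chow was 20 in all, and without 326E replicate 1 and chow replicate 3 it was 4 higher and 10 lower. Calls over all genes were 2401 and 1770 in these 2 settings, against 3688 with all libraries. Leaving out 326E replicate 2 or vehicle replicate 2 moved the count against vehicle to 1 or 5.

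Among ER chaperones and folding enzymes, 11 of 19 fell in 326E livers and 8 of 19 fell in vehicle livers, each against chow, with medians of -0.80 and -0.59, and with scaling to total assigned reads 1 rose and 4 fell in 326E, while 3 rose and 1 fell in vehicle. The medians were then -0.44 and -0.22, against 0.24 and 0.25 for all genes. With the deposited scaling, the share of the 19 called in either direction was 57.9% in 326E and 47.4% in vehicle, against 26.8% and 41.6% of all genes. Hsp90b1, the ER form of Hsp90, had 81.3, 82.3 and 91.3 FPKM in 326E replicates, 92.9, 123 and 112 FPKM in vehicle replicates, and 181, 149 and 309 FPKM in chow replicates. Its mean in 326E was 0.399 of that in chow (log2 -1.25 ± 0.24, adjusted p = 0.00577). Pdia4, a disulfide isomerase, fell in vehicle to 43.3 ± 13.3 FPKM, against 87.7 ± 29.2 in chow (SD, n = 3 each; log2 -1.002 ± 0.27, adjusted p = 0.0168). Against chow, Hsp90b1 also fell in vehicle (-0.89, adjusted p = 0.0163) and Pdia4 in 326E (-0.95, adjusted p = 0.0308). Dnajc10, an ER reductase, was the exception and rose in vehicle (0.54 ± 0.10, adjusted p = 0.00221). Chow replicate 3, high in pancreas transcripts, held the highest level of Hsp90b1, Pdia4, Hyou1, Creld2, Manf and Sdf2l1.

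Without chow replicate 3 and 326E replicate 1, 4 of 19 chaperones were lower in 326E than in chow, with a median of -0.56, and in vehicle 5 were lower and 1 higher, with a median of -0.27. Calls over all genes also fell, from 3688 to 1770 in 326E and from 5721 to 4636 in vehicle, each against chow. Hsp90b1 remained lower in 326E (-0.91, adjusted p = 0.0221), whereas Pdia4 was no longer called in vehicle (-0.76, adjusted p = 0.0751). Leaving out 326E replicate 1 or 2 alone left 7 chaperones called, and leaving out vehicle replicate 1 left 5 called in the diet comparison. Between 326E and vehicle, 0 of 19 chaperones were called by limma and by voom, and 3 were lower and 0 higher at an unadjusted p under 0.05.

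**Figure D4:**
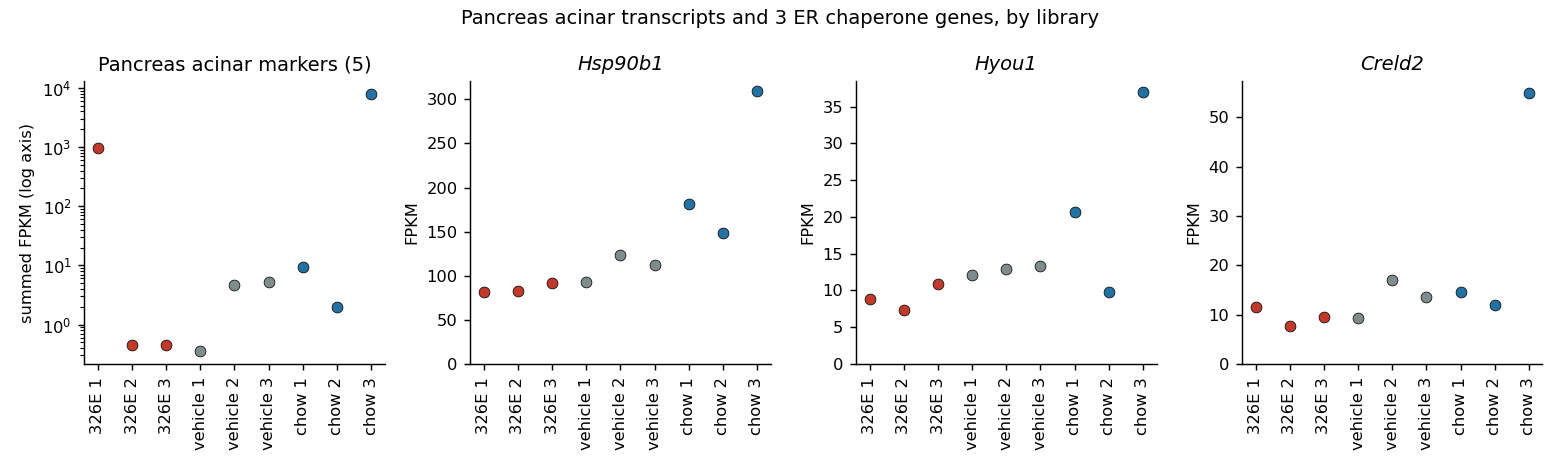
Summed FPKM of 5 pancreas acinar markers (log axis) and FPKM of the ER chaperone genes Hsp90b1, Hyou1 and Creld2 (linear axes from 0) in the 9 libraries. Chow replicate 3 is highest in all 4 panels, at 7900 FPKM for the markers, and 326E replicate 1 is the other library with pancreas transcripts, at 981 FPKM.

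Of 15 genes of ER-associated degradation, 5 fell in 326E and 6 fell in vehicle, each against chow, whereas scaling to total assigned reads gave 1 lower in 326E and 4 higher and 1 lower in vehicle. Derl2, a membrane component of the export machinery for misfolded protein, had 7.57, 8.25 and 8.23 FPKM in vehicle replicates and 14.9, 13.9 and 18.1 in chow replicates (log2 -0.88 ± 0.11, adjusted p = 0.000389). Sel1l, the adaptor of the Hrd1 ligase, had 12.7, 13.7 and 14.3 FPKM in 326E and 21.3, 19.6 and 30.9 in chow (-0.75 ± 0.15, adjusted p = 0.00696). Neither pair of groups overlapped. Against chow, Derl2 also fell in 326E (-0.73, adjusted p = 0.00210) and Sel1l in vehicle (-0.74, adjusted p = 0.00412). With scaling to total assigned reads, Sel1l was not called in 326E against chow (-0.40, adjusted p = 0.0550). The share of the 15 called was 33.3% in 326E and 40% in vehicle, against 26.8% and 41.6% of all genes called in either direction. All of the list's calls were falls, and the share of all genes called lower was 12.5% in 326E and 20.8% in vehicle. The medians of the list were -0.29 in 326E and -0.44 in vehicle, against -0.02 and -0.04 over all genes. In 326E against chow the count was 2 without 326E replicate 2, 3 without 326E replicate 1 or chow replicate 3, and 2 without both pancreas-bearing libraries. Calls over all genes were 2401, 2499, 2783 and 1770 in that order, against 3688 with all libraries.

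In the list of translocation and vesicle export, 7 of 16 genes fell in 326E and 2 of 16 in vehicle, each against chow, whereas scaling to total assigned reads gave 1 higher in 326E and 3 higher in vehicle. Tram1, a protein of the translocation channel, averaged 50.2 ± 5.56 FPKM in 326E and 85.2 ± 16.4 in chow (SD, n = 3 each; log2 -0.74 ± 0.15, adjusted p = 0.00607). Sec63, which couples BiP to the channel, averaged 17.0 ± 0.472 FPKM in vehicle and 24.6 ± 2.31 in chow (-0.51 ± 0.10, adjusted p = 0.00298). Against chow, Tram1 also fell in vehicle (-0.43, adjusted p = 0.0402) and Sec63 in 326E (-0.45, adjusted p = 0.00921). With scaling to total assigned reads, neither Sec63 in vehicle (-0.13, adjusted p = 0.315) nor Tram1 in 326E (-0.38, adjusted p = 0.0572) was called against chow. The share of the 16 called was 43.8% in 326E and 12.5% in vehicle, against the same backgrounds of 26.8% and 41.6%. The 7 calls were 3 without 326E replicate 2, 4 without chow replicate 3, and 2 without chow replicate 3 and 326E replicate 1. Calls over all genes fell as well, from 3688 to 2401, 2783 and 1770 in that order. The 2 calls of the diet comparison were 1 to 4 when single libraries were left out. For 326E against vehicle, limma and voom called 0 genes of degradation and 0 of translocation, and at an unadjusted p under 0.05 limma gave 1 lower gene in each.

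The sensors differed from each other. Ern1, which encodes IRE1, had 7.06, 8.85 and 8.12 FPKM in 326E replicates, 9.88, 10.1 and 9.53 in vehicle replicates, and 17.7, 16.3 and 21.1 in chow replicates. It fell against chow in 326E (log2 -1.10 ± 0.11, adjusted p = 0.000287) and in vehicle (-0.83 ± 0.11, adjusted p = 0.000491). Eif2ak3, which encodes PERK, rose in vehicle, with 6.41, 5.94 and 8.23 FPKM against 4.11, 2.47 and 3.28 in chow (0.88 ± 0.17, adjusted p = 0.00298). That difference was 0.71 with vehicle replicate 2 as the only vehicle library. Of 12 genes in this list, 2 rose and 3 fell on the diet (8 rose and 1 fell with scaling to total assigned reads), and 3 in all were called without 326E replicate 2, vehicle replicate 1, chow replicate 1 or chow replicate 2. Against chow, 2 fell in 326E (4 rose and 1 fell with that scaling), and 1 was called without 326E replicate 1. The shares called were 16.7% in 326E and 41.7% in vehicle, against 26.8% and 41.6% of all genes. Against vehicle, limma and voom called 0 of 12, and 1 was higher and 4 lower at an unadjusted p under 0.05.

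Of 24 tested ATF4 and CHOP target genes beyond the members, 4 rose and 2 fell in 326E against chow, and 7 rose and 3 fell in vehicle against chow. The shares called, 25% and 41.7%, were near those of all genes, 26.8% and 41.6%. With scaling to total assigned reads, 12 rose and 1 fell in 326E, and 12 rose and 2 fell in vehicle. The other 5 listed genes were below the filter. Atf3, a stress-induced transcription factor, had 13.1, 8.63 and 7.45 FPKM in 326E replicates, 136, 30.1 and 210 FPKM in vehicle replicates, and 0.683, 0.394 and 0.169 FPKM in chow replicates. No groups overlapped, and vehicle replicates 1 and 3 were far above replicate 2. Atf3 fell in 326E against vehicle (log2 -3.20 ± 0.59, adjusted p = 0.0119) and rose against chow in vehicle (6.11 ± 0.59, adjusted p = 7.83e-05) and in 326E (2.90 ± 0.59, adjusted p = 0.00718). With vehicle replicate 2 as the only vehicle library, the difference from vehicle was -1.57 (adjusted p = 0.0526). The rise in 326E against chow was not called without 326E replicate 1 and chow replicate 3 (2.56, adjusted p = 0.0806), with a pseudocount of 5 (1.43, adjusted p = 0.0869) or with voom (4.61, adjusted p = 0.0536).

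Enzymes in the same list were called in both directions. Shmt2, of mitochondrial serine metabolism, averaged 36.3 ± 3.19 FPKM in vehicle and 66.0 ± 5.97 in chow (SD, n = 3 each; log2 -0.85 ± 0.11, adjusted p = 0.000389). Cth, of cysteine synthesis, averaged 81.3 ± 5.73 FPKM in 326E and 210 ± 26.1 in chow (-1.35 ± 0.14, adjusted p = 0.000305), and it also fell in 326E against vehicle (-0.61, adjusted p = 0.0257). Against chow, Shmt2 also fell in 326E (-0.48, adjusted p = 0.0122) and Cth in vehicle (-0.74, adjusted p = 0.00299). Psat1, of serine synthesis, named here after its values were seen, averaged 2.60 ± 0.629 FPKM in 326E, 2.04 ± 0.287 in vehicle and 0.229 ± 0.128 in chow (SD, n = 3 each). It rose against chow in 326E (1.54, adjusted p = 0.000206) and in vehicle (1.31, adjusted p = 0.000182). Mthfd2, of mitochondrial folate metabolism and named in the same way, rose against chow in 326E (0.74, adjusted p = 0.0284) and in vehicle (0.61, adjusted p = 0.0406). Against vehicle, 3 of the 24 fell in 326E, 12.5% against 11.5% of all genes, and 1 was called without 326E replicate 2. Against chow, 10 were called without 326E replicate 3.

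For CREBH, 3 other family members and 8 reported target genes were tested. Creb3l1, a family member known in matrix-producing cells, averaged 1.84 ± 0.400 FPKM in 326E, 2.60 ± 0.958 in vehicle and 0.382 ± 0.0585 in chow (SD, n = 3 each). It rose against chow in vehicle (log2 1.34 ± 0.20, adjusted p = 0.000695) and in 326E (1.03 ± 0.20, adjusted p = 0.00515). Stellate cell and myofibroblast markers (8 genes summed) held 138 to 161 FPKM in 326E, 202 to 280 in vehicle and 44.5 to 59.6 in chow libraries, and their part in this result was not tested. Without 326E replicate 1 and chow replicate 3, Creb3l1 was not called in 326E against chow (0.89, adjusted p = 0.0630).

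Among the reported CREBH targets, Apoa4, an apolipoprotein of triglyceride-rich particles, had 109, 80.2 and 60.3 FPKM in 326E replicates, 241, 186 and 124 FPKM in vehicle replicates, and 8.84, 13.5 and 12.5 FPKM in chow replicates. It rose on the diet (log2 3.84 ± 0.28, adjusted p = 2.01e-05) and fell in 326E against vehicle (-1.12 ± 0.28, adjusted p = 0.0352), opposite in sign to the uncalled difference of Creb3l3. That fall was not called in 10 of 22 settings, among them no filter (adjusted p = 0.0852), the replicate block (0.0509), only the libraries of the comparison (0.0612), vehicle replicate 2 alone (-1.19, adjusted p = 0.119) and without the pancreas-bearing libraries (-1.34, adjusted p = 0.0536). Apoc2 rose in 326E against vehicle from few reads (1.07 ± 0.30, adjusted p = 0.0494). That call was lost in 14 of 22 settings, and the value was 0.36 with a pseudocount of 5 (adjusted p = 0.0550) and 2.31 with a pseudocount of 0.1 (adjusted p = 0.0596). The acute phase gene Crp fell in 326E against vehicle (-0.53 ± 0.14, adjusted p = 0.0488). It fell against chow in 326E (-1.15 ± 0.14, adjusted p = 0.000726) and in vehicle (-0.63 ± 0.14, adjusted p = 0.00770). In vehicle that fall was not called with scaling to total assigned reads (-0.23, adjusted p = 0.181), by quantiles (-0.22, adjusted p = 0.252) or with vehicle replicate 2 alone (-0.51, adjusted p = 0.128). Cidec, of the lipid droplet surface, rose against chow in 326E (3.38 ± 0.33, adjusted p = 0.000214) and in vehicle (3.15 ± 0.33, adjusted p = 0.000114). Its difference of 326E from vehicle was 0.22 ± 0.33 (adjusted p = 0.697). The shares of the 8 called were 37.5% for 326E against vehicle, 50% for vehicle against chow and 37.5% for 326E against chow, against 11.5%, 41.6% and 26.8% of all genes. Against vehicle, 1 target rose and 2 fell, but leaving out single libraries gave 0 to 2 calls, with 0 without 326E replicate 2, vehicle replicate 1 or chow replicate 3.

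Immediate early genes, which respond within minutes to many stimuli, were set beside the stress genes because Atf3 is itself an early-response gene. In vehicle against chow, 9 of 11 rose, and in 326E against vehicle 8 of 11 fell, with medians of 2.74 and -2.18. These were 81.8% and 72.7% of the list, against 41.6% and 11.5% of all genes, and 18.2% of the list was called in 326E against chow, against 26.8%. Btg2, an antiproliferative gene, had 9.80, 7.53 and 8.34 FPKM in 326E replicates, 295, 21.5 and 307 FPKM in vehicle replicates, and 3.59, 3.94 and 2.92 FPKM in chow replicates, and rose on the diet (log2 4.83 ± 0.84, adjusted p = 0.00184). Egr1, a zinc finger transcription factor, had 3.38, 2.74 and 2.996 FPKM in 326E replicates and 107, 9.30 and 145 FPKM in vehicle replicates (-3.76 ± 0.93, adjusted p = 0.0336). Klf6 averaged 12.2 ± 2.66 FPKM in 326E, 49.0 ± 24.1 in vehicle and 2.51 ± 0.242 in chow (SD, n = 3 each). Every 326E library lay below every vehicle library and above every chow library. Klf6 rose in 326E against chow (1.90 ± 0.35, adjusted p = 0.00438), and was not called without the pancreas-bearing libraries (1.80, adjusted p = 0.0536). The fall of Egr1 was not called without those libraries (-3.82, adjusted p = 0.108), with no filter (0.0874) or with only the libraries of the comparison (0.0502). Leaving out 326E replicate 1, 2 or 3 also ended the call (adjusted p = 0.0803, 0.0978 and 0.0919). So did leaving out vehicle replicate 1 (0.0976) or 3 (0.0986). With vehicle replicate 2 alone the value was -1.35.

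Vehicle replicate 2 was the lowest of its group for Atf3, Btg2, Egr1 and Klf6, as it was for Atf4, Ddit3, Xbp1 and Dnajb9. It was the highest of its group for Herpud1 and Trib3 and lay between the others for Chac1, Asns, Hspa5 and Creb3l3. The part of this split in the member results was not tested. The 8 calls against vehicle were 1 without 326E replicate 1 or 2 or vehicle replicate 1 or 3, 0 without 326E replicate 3, and 11 without vehicle replicate 2. The 2 immediate early genes called higher in 326E than in chow were 5 without vehicle replicate 2.

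**Figure D5:**
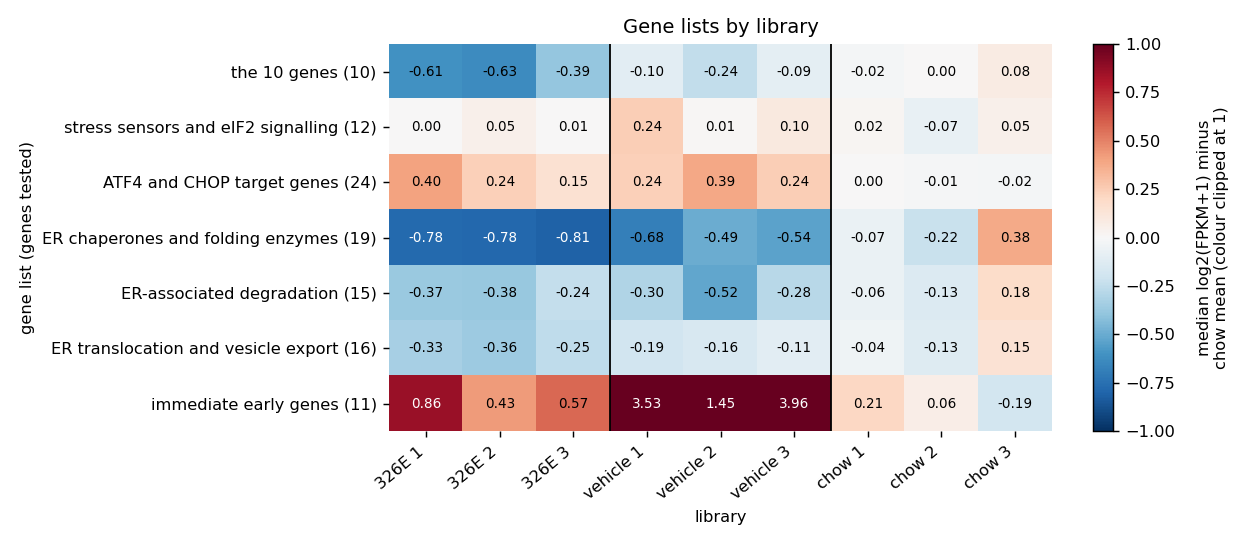
Median log2(FPKM+1) of each gene list in each library, minus the chow mean of each gene (colour and number), with the number of genes tested in brackets. The chaperone list is at -0.78 to -0.81 in 326E and at -0.49 to -0.68 in vehicle libraries, chow replicate 3 is at 0.38, and immediate early genes are at 3.53, 1.45 and 3.96 in vehicle replicates 1, 2 and 3.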

How the data were processed

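Liver poly(A) RNA libraries from 9 samples were analysed, 3 per group, grouped by the treatment given in the labels. The authors deposited FPKM values for 54532 genes with gene lengths. Per the submitters' processing notes, HISAT2 was the aligner, featureCounts the counter and mm10 the genome build. Their versions, the annotation and the strand setting are not given in the sources used here. The deposited FPKM times gene length, divided by a single constant per library, came out as whole reads (tolerance 0.01) in 100% of values. The library sizes in the FPKM were 0.83 to 1.19 of the total assigned reads and equalled median-of-ratios sizes, so values were already scaled between libraries. Replicates differed beyond counting error (chi-square of 18.8 to 72.3 per degree of freedom).

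Log2(FPKM+1) of genes that reached 0.5 FPKM in 3 or more of 9 libraries was fitted with limma 3.58.1 (R 4.3.3), using a trended variance. A single fit held the 9 libraries, leaving 6 residual degrees of freedom. Benjamini-Hochberg adjustment was applied to each comparison separately. The fit was checked on simulated data. Named genes were the 10 members, the called gene of each list with the largest rise and fall in each comparison, and the 3 nearest profiles of Chac1, Hspa5 and Creb3l3. ERSE-II was added after the Herpud1 promoter was seen, and genes named only as highest in chow replicate 3 or to place an overlap were chosen after their values were seen. The members and lists were chosen with earlier results of these data known. Python 3.11.15, pandas 2.3.3, numpy 2.4.6 and matplotlib 3.10.9 were used for tables and plots.

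The settings varied were the pseudocount (0.1 or 5), no filter, a mean of at least 1 FPKM, scaling to total assigned reads, quantile normalization, array weights, a flat variance in place of the trend, a fit of each comparison's own libraries, voom on whole reads, a replicate block, vehicle replicate 2 as the only vehicle library, and each library left out. Leaving out chow replicate 3 and 326E replicate 1 together was added after the data were seen.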

Additional observations from a re-analysis of the deposited data

How the results depend on the processing

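Of the calls among the 10 genes, the fall of Herpud1 against chow was kept in all 22 alternatives run, and the other 4 were lost in 1 to 8 of them. For 326E against vehicle, the count of called members was 1, and 0 with no filter, with vehicle replicate 2 as the only vehicle library, or without 326E replicate 1 and chow replicate 3 together. It was 2 with quantile normalization, array weights or the replicate block and 3 with only the libraries of the comparison. When single libraries were left out it was 0 to 2. The pathway genes called in that comparison were 3, and 6 with quantile normalization or array weights, 5 with no variance trend or with voom, 0 with vehicle replicate 2 alone, 1 with the pancreas-bearing libraries left out together, and 1 to 5 with single libraries left out. Calls over all genes were 1574, and 805 with the pancreas-bearing libraries left out together and 659 to 1623 with single libraries left out. Quantile normalization moved the share of calls that were higher from 43.3% to 51.4%.

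For vehicle against chow, 2 members were called, and 1 with no filter or with vehicle replicate 2 alone, and 1 to 3 with single libraries left out. Pathway genes called were 33, and 16 with vehicle replicate 2 alone. For 326E against chow, 2 members were called, and 1 with no filter or with the pancreas-bearing libraries left out, 4 with only the libraries of the comparison or vehicle replicate 2 alone, and 1 to 3 with single libraries left out. Pathway genes called were 32, and 14 with the pancreas-bearing libraries left out and 20 to 34 with single libraries left out. Calls over all genes moved too. They were 3688, and 1770 with the pancreas-bearing libraries left out and 2401 to 3717 with single libraries left out. The causes of these moves were not tested.

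Signs that turned were all of uncalled differences. With vehicle replicate 2 alone, 326E against vehicle was 0.0593 for Ddit3 and 0.0794 for Xbp1, and vehicle against chow was -0.26 for Atf4 and -0.0584 for Dnajb9. Scaling to total assigned reads gave 0.20 for Hspa5 and 0.21 for Creb3l3 in vehicle against chow, and 0.0700 for Trib3 and 0.13 for Dnajb9 in 326E against chow. Quantile normalization gave 0.34 for Hspa5 and 0.21 for Creb3l3 in vehicle against chow. Array weights gave -0.10 for Dnajb9 in vehicle against chow and 0.0226 for Asns in 326E against chow. Leaving out chow replicate 3 and 326E replicate 1 gave 0.16 for Hspa5 in vehicle against chow. With single libraries left out, values ran from -0.57 to 0.0994 for Chac1 in 326E against vehicle, from -0.52 to 0.0549 for Dnajb9 in 326E against chow, and in vehicle against chow from -0.00463 to 0.65 for Atf4, from -0.28 to 0.87 for Asns, from -0.61 to 0.16 for Hspa5 and from -0.14 to 0.44 for Dnajb9.

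Libraries with the same replicate number had correlations of deviations from -0.244 to 0.024. Those with different numbers had -0.18 to 0.19. These values over all genes cannot show whether the numbers pair samples, because a pairing that moves few genes would barely change them. With the replicate block, 2 members were called for 326E against vehicle (Herpud1 lower, Trib3 higher), 3 for vehicle against chow and 3 for 326E against chow, and pathway genes called were 2, 29 and 29. With 3 libraries per group, Chac1 and Ddit3 rested on 14 to 180 reads per library, and the part of read number in their spread was not tested.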
